A study of Mus musculus with 19 samples.

Results

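ERV1 elements are the copies in the mouse genome of class I endogenous retroviruses, and they were taken here as every row of the deposited table of intergenic repeats whose class was LTR/ERV1. There were 58298 such elements of 147 repeat names, 2.21% of the 2634743 repeat elements in the table, and they covered 26.8 Mb. Another 86 elements, whose class was written with a question mark, were not counted. The choice used the annotation and no measured value. Elements had a median length of 305 bp, the longest was 7773 bp and 582 were longer than 5 kb. By the ending of the name, 30 names were internal parts and 117 were long terminal repeats (LTRs).

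A complete endogenous retrovirus has an internal part, which carries or once carried the viral genes, between a pair of LTRs, which hold the viral promoter and the site where the transcript ends. Recombination between the LTRs removes the internal part and leaves a solitary LTR, the most frequent form in the genome. In mice, class I holds the murine leukemia viruses (MuLV), the GLN family, named for the tRNA that primes its reverse transcription, the VL30 elements, which lack intact viral genes and whose RNA can be packaged by MuLV particles, and the MuRRS elements. DNA methylation and repressive histone marks keep most of these copies silent, and some LTRs have become promoters of cellular genes.

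Reads on repeats were compared in 6 RNA-seq libraries. They came from yolk sac endoderm (ysE) at E9.25, from the mesoderm of the visceral yolk sac (VYS) at E9.25, 2 libraries each (A and B) of FVB mice with whole litters pooled per sample, and from cystic embryoid bodies (EBs) after 10 and 15 days (d10 and d15) of differentiation of 1 ES cell clone, JN, an XX line of C57Bl/6x129 background. Cystic EBs are hollow aggregates formed by differentiating ES cells. The mesoderm was collected with its vessels and basement membrane after the layers were parted by hand following Dispase treatment. CpG methylation was compared in 6 whole genome bisulfite (WGBS) libraries, 1 of each reciprocal CAST by FVB cross (CxF and FxC) from d15 cystic EBs, ysE and fetal liver, both tissues at E12.5, the EBs being of clones CF C2 and FC A2. Trimethylation of lysine 4 of histone H3 (H3K4me3), a mark of active promoters, came from 1 library of whole VYS at E12.5 of FVB mice, pooled over litters. The cystic EB libraries of the read comparison were 1 clone at 2 days, so their spread includes the change between days, and strain and tissue cannot be told apart wherever cystic EBs were set against FVB tissue. The ysE and mesoderm libraries were both FVB. Levels of genes were read in 5 more RNA-seq libraries, 1 of ysE and 2 of fetal liver at E12.5, all of FVB mice, and d10 and d15 cystic EBs of clone A9, an XY line that is also C57Bl/6x129.

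Copies of an ERV1 family can be identical over more than the length of a read, and the sequences printed here, from RefSeq on GRCm38.p6 (mm10), show this for GLN. Within the internal part MMERGLN-int, 150 bases of the copy on chromosome 2 (chr2:94806113-94806262, plus strand) were the same in copies on chromosome 4 (chr4:51876499-51876648) and chromosome 6 (chr6:132965214-132965363, minus strand), and a further copy on chromosome 6 (chr6:7724125-7724274) differed at 1 base, 99.3% identity, shown in capitals.
GLN, chromosome 2: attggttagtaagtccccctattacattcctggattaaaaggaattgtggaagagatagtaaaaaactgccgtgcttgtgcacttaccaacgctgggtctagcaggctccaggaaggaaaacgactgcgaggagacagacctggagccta
GLN, chromosome 6: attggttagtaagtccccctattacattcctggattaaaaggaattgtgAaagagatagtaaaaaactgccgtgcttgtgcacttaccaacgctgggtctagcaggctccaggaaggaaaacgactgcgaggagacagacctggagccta
The GLN copy with the most reads lay on chromosome 8, and 300 bases near its start (chr8:121833741-121834040, plus strand) are given with their 5 CpG positions in capitals.
GLN, chromosome 8: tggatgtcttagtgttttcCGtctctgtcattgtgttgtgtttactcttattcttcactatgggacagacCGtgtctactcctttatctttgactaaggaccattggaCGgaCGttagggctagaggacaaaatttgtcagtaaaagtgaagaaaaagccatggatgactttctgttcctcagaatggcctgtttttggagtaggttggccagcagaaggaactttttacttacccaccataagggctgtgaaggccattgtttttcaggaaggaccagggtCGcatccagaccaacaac
The VL30 LTR of the second highest read number, RLTR6_Mm on chromosome 13 (chr13:21767879-21768178, plus strand), held 3 CpG positions, in capitals, in its last 300 bases covered by the RefSeq promoter table.
VL30 LTR, chromosome 13: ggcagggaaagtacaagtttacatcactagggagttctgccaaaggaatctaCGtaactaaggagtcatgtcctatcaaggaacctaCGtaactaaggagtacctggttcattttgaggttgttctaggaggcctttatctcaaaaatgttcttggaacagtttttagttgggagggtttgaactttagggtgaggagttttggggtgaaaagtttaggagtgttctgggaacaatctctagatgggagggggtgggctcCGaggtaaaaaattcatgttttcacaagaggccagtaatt
How the authors' counting dealt with reads that match several copies is not given in the sources used here. Reads by copy depend on it more than reads by name.

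The libraries held 86063967 to 188223399 reads on repeats, of which 65.9% to 79.4% lay on the repeats of RNA genes, and 390398 to 780971 reads on ERV1 elements. The tissue labels were checked against marker genes (RPKM summed over each list). The 6 endoderm markers, Afp, Ttr, Apoa1, Amn, Cubn and Rbp4, summed to 10098 and 11654 in ysE, 1121 and 1972 in mesoderm and 140.1 and 543 in cystic EBs. The 4 genes of primitive blood summed to 853 and 1020 in ysE, 43931 and 34240 in mesoderm and 62.6 and 127 in cystic EBs. The 6 genes of mesoderm and vessels summed to 27.5 and 39.5, 746 and 698, and 178 and 416. In cystic EBs most of this last sum came from Vim (145 and 286) and Acta2 (24.7 and 102). Of the others, Kdr, Cdh5 and Col1a1 overlapped ysE, and Pecam1 (3.27 and 6.29 against 0.694 and 1.21) lay above it. The 4 pluripotency genes summed to 317 and 223 in cystic EBs against at most 6.09 elsewhere. The lists differed between the tissues together with the ERV1 reads, and the part of the cell types in the read differences was not tested. In such bulk samples fewer cells of a type and less RNA per cell cannot be told apart.

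ERV1 elements took a small share of the reads, which differed between the groups. Of the reads on repeats outside RNA genes, they held 1.70% and 1.78% in ysE, 2.06% and 1.94% in mesoderm and 2.66% and 2.44% in cystic EBs. The groups did not overlap, and cystic EBs had the highest share (2.55% ± 0.162, SD, n = 2, against 1.74% ± 0.0589 in ysE). With 2 libraries against 2, the smallest 2-sided p of an exact permutation test of this value is 0.333, so no such test can pass. For comparison, ERVK elements, which include the IAP family, held 36.0%, 32.5% and 34.8%, ERVL elements 4.49%, 6.76% and 9.27%, and ERVL-MaLR elements 4.62%, 4.42% and 3.90% (group means of ysE, mesoderm and cystic EBs).

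The families shifted against one another within this share. GLN, with 1175 elements and 4.89% of the ERV1 bases, held 13.0% and 13.1% of the ERV1 reads in ysE, 5.55% and 4.82% in mesoderm and 35.0% and 29.3% in cystic EBs. VL30, with 2791 elements, held 15.5% and 13.9%, then 17.4% and 15.4%, but only 6.55% and 7.40% in cystic EBs. MuLV, with 893 elements, held 5.65% and 6.78%, 9.47% and 11.3%, and 5.67% and 4.49%, so that mesoderm stood above both other groups. MuRRS, with 6759 elements, held 11.6%, 14.6% and 8.35% on average, and the 26365 elements of other rodent names 36.9%, 40.0% and 37.8%. The older MER names held 4.95%, 3.69% and 3.09%, and other LTR names 9.44%, 7.02% and 4.91%.

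Reads were summed by name and tested with edgeR's quasi-likelihood test over the names of all repeat classes (FDR 5%, Benjamini-Hochberg). P-values measure the spread between these libraries only. Of the 147 ERV1 names, 128 had enough reads for the test. Between ysE and mesoderm, 14 ERV1 names were higher and 12 lower in ysE, beside 10.6% higher and 9.3% lower of all 1193 names, and the median log2 difference was 0.00 over ERV1 and -0.02 over all names. Between cystic EBs and mesoderm, 6 were higher and 4 lower in cystic EBs, beside 1.51% and 1.51% of all names. Between cystic EBs and ysE, 22 were higher and 17 lower in cystic EBs, beside 16.9% and 17.2%, with a median of 0.19 over ERV1 and 0.03 over all names. Scaling the libraries by their RefSeq transcript counts turned the last split into 27 higher and 9 lower and moved the median of all names to 0.23. The counts depended on single libraries. For ysE against mesoderm, 26 names in all fell to 2 without mesoderm A, 13 without mesoderm B or ysE B, 11 without d10 and 15 without d15. For cystic EBs against mesoderm, 10 fell to 4 without d10 and 6 without d15 or mesoderm A, and for cystic EBs against ysE, 39 fell to 12 without d10, 14 without d15 and 21 without ysE B. Levels are given below as CPM, reads scaled to the total of repeat reads and by the TMM factor of the library, in the order A and B, or d10 and d15.

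**Figure D1:**
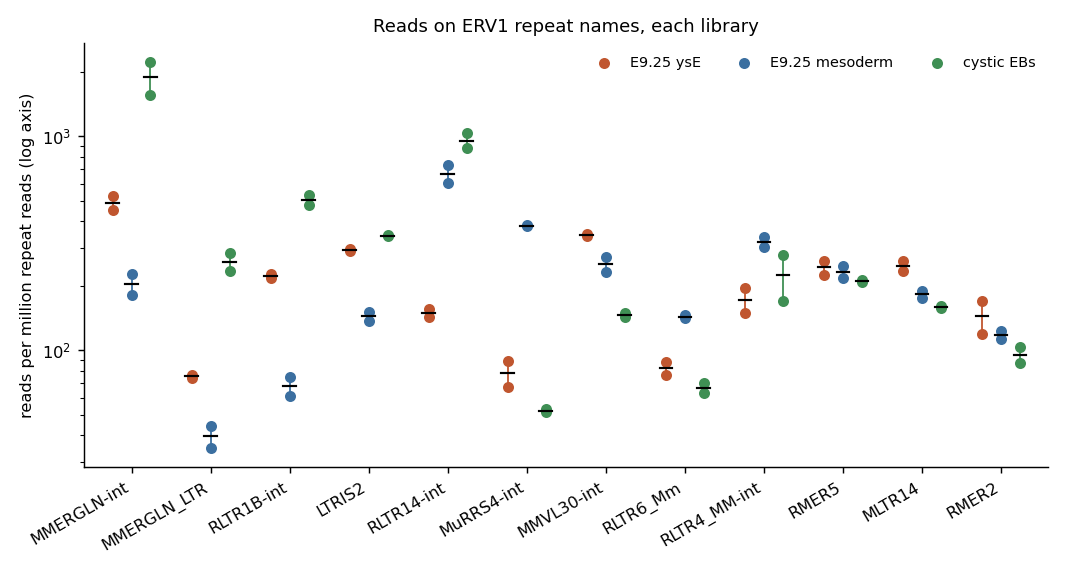
CPM of 12 ERV1 names (log axis) in each of the 6 libraries, a black bar marking the mean of the 2 libraries of a group. MMERGLN-int runs from 180.4 in a mesoderm library to 2226 in d10 cystic EBs, RLTR14-int lies low in ysE alone, and MuRRS4-int lies high in mesoderm alone.

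GLN transcripts formed an ordered series, lowest in mesoderm and highest in cystic EBs. MMERGLN-int, the internal part with the gag, pol and env regions, had 455 and 524 CPM in ysE, 227 and 180.4 CPM in mesoderm and 2226 and 1556 CPM in cystic EBs. No group overlapped another. It was 2.40-fold higher in ysE than in mesoderm (log2 1.26, SE 0.213, adjusted p = 0.0175), 9.27-fold higher in cystic EBs than in mesoderm (log2 3.21, SE 0.229, adjusted p = 0.00314) and 3.87-fold higher in cystic EBs than in ysE (log2 1.95, SE 0.218, adjusted p = 0.00339). Its LTR, MMERGLN_LTR, followed the same order with 77.0 and 73.9 CPM in ysE, 44.3 and 35.0 CPM in mesoderm and 284 and 234 CPM in cystic EBs. Its log2 differences were 0.93, 2.71 and 1.78 in the same 3 comparisons. Both names stayed called in the cystic EB comparisons without any 1 library. The call of ysE against mesoderm was lost for MMERGLN-int without mesoderm A, mesoderm B or ysE B (log2 1.10 to 1.44 over all libraries left out in turn) and for MMERGLN_LTR without d10 as well (0.77 to 1.11).

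The GLN reads lay on copies of nearly full length. The 80 copies of MMERGLN-int over 5 kb, of 797, held 88.8% and 90.0% of its reads in ysE, 79.5% and 74.2% in mesoderm and 93.5% and 93.0% in cystic EBs. Of these, 51 had at least 1000 reads summed over the 6 libraries, a minimum that copies high in cystic EBs pass more readily. In these, the ratio of mean CPM in cystic EBs to that in ysE ranged from 0.262 to 27.6, with a median of 3.96. It was above 1 for 44 of them. Among them, the copy at chrY:2580072-2586550 had 1823 and 1251 reads in cystic EBs. That clone is XX, so these reads cannot come from a Y chromosome of its own, and their source was not tested. One copy stood apart from the rest. At chr8:121833275-121840834, the copy whose bases are printed above, 749 and 1417 reads in ysE and 313 and 227 in mesoderm stood against 31063 and 19206 in cystic EBs. It gave the ratio of 27.6, where the second highest was 7.43, and its fitted log2 difference was 4.32 (SE 0.310, adjusted p = 0.0147 over all elements tested), a call lost without any 1 library (3.99 to 4.48). It held 12.8% and 12.1% of the MMERGLN-int reads in cystic EBs and 1.21% to 1.78% in the other libraries. The LTRs on either side of it, chr8:121832845-121833274 and chr8:121840835-121841264, had 2046 and 1455, and 1191 and 942 reads in cystic EBs, against 34 to 256 in the other libraries. By contrast, the copy at chr6:58817673-58825229 had 3306 and 6142 reads in ysE and 8416 and 5462 in cystic EBs, with a log2 difference of 0.33 (adjusted p = 0.51). Leaving out the copy with most reads, an alternative chosen after seeing the data, left the name called in all 3 comparisons.

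**Figure D2:**
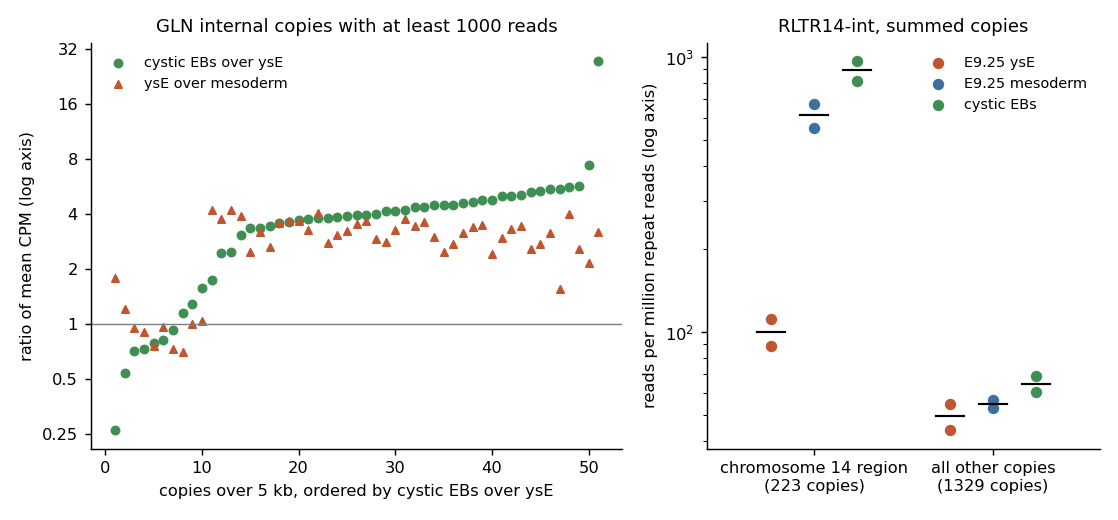
Left, the ratio of mean CPM (log axis) for the 51 GLN internal copies over 5 kb with at least 1000 reads over the 6 libraries. This minimum favours copies high in cystic EBs. Copies are ordered by cystic EBs over ysE, with ysE over mesoderm as triangles. The last point, at 27.6, is the copy on chromosome 8, and the medians are 3.96 and 3.07. Right, summed CPM (log axis) of RLTR14-int in each library, for 223 copies in the chromosome 14 region and the 1329 others, black bars marking means of 2 libraries.

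RLTR14-int, the internal part of a rodent family, set ysE apart from both other tissues. It had 156 and 143 CPM in ysE, 732 and 603 CPM in mesoderm and 1032 and 879 CPM in cystic EBs. It was 4.47-fold lower in ysE than in mesoderm (log2 -2.16, SE 0.150, adjusted p = 0.00398) and 6.40-fold higher in cystic EBs than in ysE (log2 2.68, SE 0.153, adjusted p = 0.000938), and both calls stayed without any 1 library. Between cystic EBs and mesoderm the log2 difference was 0.52 (SE 0.144, adjusted p = 0.13). Most of the reads came from 1 stretch of the genome, chosen after the values were seen. On chromosome 14 from 3 to 8 Mb, 223 of the 1552 copies of RLTR14-int held 90.0% of all its reads. By library they held 71.8% and 61.8% in ysE and 91.3% to 93.3% in the others. These copies had 112 and 88.5 CPM in ysE, 676 and 550.2 CPM in mesoderm and 963 and 819 CPM in cystic EBs. The other 1329 copies had 43.8 and 54.8 CPM in ysE, 56.4 and 52.7 CPM in mesoderm and 68.9 and 60.5 CPM in cystic EBs, so that ysE and mesoderm overlapped there. The region held 243 ERV1 elements, of which 223 were the RLTR14-int copies. Its share of all ERV1 reads, mostly RLTR14-int reads, was 3.13% and 2.41% in ysE. In mesoderm it was 14.3% and 12.8%, and in cystic EBs 13.6% and 13.9%.

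Single copies in that region went from no read to over 100. At chr14:3314139-3314485 neither ysE library had a read, while mesoderm had 114 and 101 reads and cystic EBs had 141 and 138. Against a floor of 3 reads per library this was at least 41.8-fold higher in mesoderm and at least 51.8-fold higher in cystic EBs. At chr14:3130940-3131004, inside the predicted gene Gm10340, the reads were 0 and 0, 63 and 131, and 178 and 146. At chr14:5478426-5479056 they were 0 and 0, 33 and 88, and 209 and 156. In all, 11 of the 223 copies had no read in either ysE library, a smaller share than the 688 of 1329 copies elsewhere, and 6 of the 11 and 0 of the 688 had at least 100 reads over the other 4 libraries. Of the 332 RLTR14-int copies tested singly, 39 were lower in ysE than in mesoderm and none higher, beside 0.283% and 0.96% of the elements of all classes. Against ysE cystic EBs had 112 higher and 4 lower copies, beside 3.4% and 8.63%, and all these calls were lost without any 1 library.

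RLTR1B-int followed the order of GLN. It had 228 and 218 CPM in ysE, 61.1 and 75.2 CPM in mesoderm and 534 and 477 CPM in cystic EBs. It was 3.27-fold higher in ysE than in mesoderm (log2 1.71, SE 0.140, adjusted p = 0.00601), a call lost without mesoderm A only (log2 1.57 to 1.87 over the libraries left out in turn). In cystic EBs it was 7.42-fold higher than in mesoderm (log2 2.89) and 2.27-fold higher than in ysE (log2 1.18), and these calls stayed without any 1 library. The copy of most reads lay on the X chromosome (chrX:164049199-164051869), with 287 and 439 reads in ysE, 49 and 73 in mesoderm and 11014 and 7646 in cystic EBs. Without it the log2 difference of cystic EBs from ysE was 0.80 (adjusted p = 0.00635) in place of 1.18. The EB clone is XX and the tissues were whole litters, and the part of X dosage in this copy was not tested. LTRIS2, an LTR grouped here with MuRRS, had 292 and 298 CPM in ysE, 151 and 137 CPM in mesoderm and 347 and 341 CPM in cystic EBs. It was higher than in mesoderm in ysE (log2 1.04, adjusted p = 0.00797) and in cystic EBs (log2 1.26, adjusted p = 0.00314), the former lost without mesoderm A (range 0.97 to 1.11) and the latter without d10 (1.18 to 1.36).

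The VL30 names did not move alike. Of the 5, 1 was called lower and 1 higher in cystic EBs than in ysE. MMVL30-int, an internal part, had 348 and 341 CPM in ysE, 273 and 233 CPM in mesoderm and 149 and 144 CPM in cystic EBs. It was 2.35-fold lower in cystic EBs than in ysE (log2 -1.23, SE 0.117, adjusted p = 0.00245), a call that stayed without any 1 library. Of its 265 copies tested singly, 84 were lower and 0 higher in cystic EBs than in ysE, beside 8.63% and 3.4% of the elements of all classes, a split that moves with the scaling, and these calls were lost without any 1 library. Its difference between cystic EBs and mesoderm (log2 -0.79, adjusted p = 0.0273) was lost without any 1 of the cystic EB or mesoderm libraries (-0.90 to -0.64), and that between ysE and mesoderm (log2 0.44, adjusted p = 0.0465) without any 1 library (0.33 to 0.56). The other internal part, RLTR6-int, was highest in mesoderm, with 149 and 167 CPM in ysE, 328 and 246 CPM in mesoderm and 189 and 174 CPM in cystic EBs. Its log2 difference of cystic EBs from ysE was 0.20 (adjusted p = 0.372). That of ysE from mesoderm was -0.86 (adjusted p = 0.0227), kept without mesoderm B and lost without any 1 of the other libraries (-1.05 to -0.64). The LTR RLTR6_Mm had 88.0 and 76.9 CPM in ysE, 141 and 146 CPM in mesoderm and 70.4 and 63.4 CPM in cystic EBs. It was lower than in mesoderm in ysE (log2 -0.80, adjusted p = 0.0147) and in cystic EBs (log2 -1.10, adjusted p = 0.00924). Without mesoderm A or mesoderm B both calls were lost, and the second also without d10 or d15. RLTR6C_Mm, a rarer LTR named here after its values were seen, had 3.54 and 2.57 CPM in ysE, 5.76 and 4.56 CPM in mesoderm and 5.33 and 6.37 CPM in cystic EBs, and was called higher in cystic EBs than in ysE (log2 0.94, adjusted p = 0.0442).

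The copies of most reads of MMVL30-int and RLTR6_Mm lay at 1 locus on chromosome 13, whereas that of RLTR6-int lay on chromosome 11 (chr11:86207347-86208018). The MMVL30-int copy of most reads (chr13:21763395-21766269) lay between the RLTR6_Mm copies ranked first (chr13:21762795-21763394) and second (chr13:21767571-21768190). These LTRs had nearly equal reads in every library, 599 and 1358 against 594 and 1366 in ysE, 1072 and 1387 against 1096 and 1376 in mesoderm, and 1391 and 1305 against 1375 and 1291 in cystic EBs. They held 11.3% and 11.2% of the reads of RLTR6_Mm. Unlike the name as a whole, this locus was not low in cystic EBs. The internal copy had 965 and 2038 reads in ysE, 1475 and 1683 in mesoderm and 1591 and 1492 in cystic EBs. Nearby elements of other families had similar reads. The LTRIS2 element at chr13:21761332-21761773 had 554 and 1296, 917 and 1211, and 1344 and 1265 in the same order. The RMER5 element at chr13:21751438-21751814 had 598 and 1382, 951 and 1307, and 1356 and 1310.

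Some names rested on 1 element. MuRRS4-int had 67.3 and 89.5 CPM in ysE, 384 and 381 CPM in mesoderm and 53.1 and 51.4 CPM in cystic EBs. It was 4.88-fold lower in ysE than in mesoderm (log2 -2.29, adjusted p = 0.00398) and 7.32-fold lower in cystic EBs than in mesoderm (log2 -2.87, adjusted p = 0.00188). An element of 502 bp inside the predicted gene Gm39850, at chr2:73012945-73013446, held 64.7% of its reads, with 1946 and 7611 in ysE, 25890 and 32407 in mesoderm and 1086 and 1132 in cystic EBs. Without it the log2 differences were -1.03 (adjusted p = 0.0351) and -1.21 (adjusted p = 0.0676). MER57-int was 4.11-fold lower in cystic EBs than in ysE (log2 -2.04, adjusted p = 0.00350), and 73.5% of its reads lay on 71 bp of chromosome 3, with 475 and 970 reads in ysE, 176 and 200 in mesoderm and 50 and 67 in cystic EBs. Without that element the difference was -0.25. MER50-int rested for 95.7% on chr4:83335883-83336385, with 215 and 346 reads in ysE, 0 and 0 in mesoderm and 2 and 32 in cystic EBs. The MER31-int element beside it, chr4:83335505-83335705, had 215 and 345, 0 and 0, and 2 and 32 reads, so the calls of both names share this locus. Both were called higher in ysE than in mesoderm (log2 6.22 and 2.60), calls lost without mesoderm A or mesoderm B (ranges 5.78 to 6.82 and 2.09 to 2.98). Likewise RodERV21-int at chr11:20438853-20439235 and MER52-int at chr11:20437548-20437782 had the same counts in all libraries, 179 and 317 in ysE, 0 and 0 in mesoderm and 39 and 51 in cystic EBs, at least 66.5-fold higher in ysE than in mesoderm for each.

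Other named calls were smaller or rarer. RLTR30D_RN had 18.6 and 15.3 CPM in ysE, 19.9 and 20.8 CPM in mesoderm and 4.17 and 4.65 CPM in cystic EBs, where it was lower than in ysE (log2 -1.94, adjusted p = 0.00245) and than in mesoderm (log2 -2.21, adjusted p = 0.00314, lost without d10, range -2.25 to -2.13). A pair of elements inside the gene D17H6S56E-5 on chromosome 17 held 53.6% and 31.3% of its reads. RLTR48C was 4.16-fold lower in cystic EBs than in ysE (log2 -2.06, adjusted p = 0.00844, lost without d10 or d15, range -2.20 to -1.88). Its copy of most reads, chr1:93903197-93903686, had 1198 and 2425 reads in ysE, 0 and 368 in mesoderm and 101 and 115 in cystic EBs, and the RLTR1D element at chr1:93901936-93902492 had nearly the same, 1197 and 2436, 0 and 366, and 104 and 122. MER34-int had 0.210 and 0.249 CPM in ysE, 2.22 and 2.13 CPM in mesoderm and 1.22 and 1.10 CPM in cystic EBs, so that ysE was lowest (log2 -3.23 against mesoderm, adjusted p = 0.00601, lost without mesoderm A, range -3.36 to -3.12). MER92A was also lowest in ysE, at no more than 0.990 CPM in any library, and LTR28 was called on 18 reads at most per library and lost its call against mesoderm without mesoderm A, mesoderm B or ysE B (log2 -7.01 to -4.38). Single elements also reached high folds on modest counts. An MLTR14 element at chr7:114201667-114202142 had 409 and 745 reads in ysE, 0 and 2 in mesoderm and none in cystic EBs, at least 161-fold lower in cystic EBs than in ysE, and an RLTR24B_MM element at chr3:86991971-86992369 had 201 and 367, 0 and 1, and none.

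MURVY-int, the internal part of the retroviral repeats amplified on the Y chromosome, had 6.77 and 4.84 CPM in ysE, 70.2 and 20.3 CPM in mesoderm and 9.86 and 7.71 CPM in cystic EBs. The log2 difference of ysE from mesoderm was -2.96 (adjusted p = 0.0249) and -1.80, not called, without mesoderm A. It was called in 1 of the 6 fits with a library left out, that without mesoderm B. The 397 copies on the Y chromosome had 289 and 271 reads in ysE, 6181 and 1444 in mesoderm and 102 and 168 in cystic EBs, whose clone is XX. The 119 copies elsewhere had 357 and 466, 695 and 658, and 971 and 619 reads. The mesoderm libraries lay far apart on the Y copies and close together on the others.

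The remaining names of high read number did not pass the test in most comparisons. RLTR4_MM-int, the internal part of MuLV, had 150.0 and 195 CPM in ysE, 303 and 338 CPM in mesoderm and 279 and 169 CPM in cystic EBs, with log2 differences of -0.89 (adjusted p = 0.0644), -0.52 and 0.38. RMER5 stayed between 208 and 263 CPM in all libraries. MLTR14 had 234 and 262 CPM in ysE, 176 and 190 CPM in mesoderm and 161 and 158 CPM in cystic EBs, and was called at a log2 difference of 0.44 for ysE against mesoderm, kept without ysE A only (range 0.36 to 0.52), and of -0.64 for cystic EBs against ysE, lost without d10 or d15 (-0.72 to -0.54). RMER2 had 119 and 169, 123 and 113, and 87.5 and 103 CPM, with no call. MERV1_I-int was higher in cystic EBs than in ysE (log2 0.80, adjusted p = 0.024, lost without d10, ysE A or ysE B, range 0.55 to 1.06) and RodERV21-int lower (log2 -0.89, adjusted p = 0.0491, lost without d10, d15, ysE A or ysE B, range -1.01 to -0.75).

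At the level of single copies, 6058 ERV1 elements (10.4%) had enough reads for the test. Reads were concentrated, since 314 elements held 50% of all ERV1 reads and 17.9% of the elements had none. Between ysE and mesoderm, 51 were higher and 55 lower in ysE, beside 0.96% and 0.283% of the 239554 elements of all classes. The split followed the scaling, being 89 higher and 49 lower with DESeq2 size factors and 38 higher and 73 lower with the normalization factors of the fit by name, which moved the median log2 difference of all elements from -0.13 to 0.07 and -0.44. Between cystic EBs and ysE, cystic EBs had 290 higher and 432 lower elements, beside 3.4% and 8.63%. With the factors of the fit by name this turned to 419 higher and 317 lower, and the median of all elements moved from 0.18 to 0.63, so which direction held more elements depended on the scaling. Between cystic EBs and mesoderm, edgeR called 0 higher and 0 lower, as for all elements (0.0% in each direction), although 1531 had an unadjusted p under 0.05, and no other tool was run on single elements. Every element call was lost when any 1 of the 6 libraries was left out, so the single copies above are best read by their counts.

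CpG methylation of ERV1 elements was lowest in ysE and highest in cystic EBs. Over all ERV1 elements, 77.6% and 72.1% of the reads at CpG positions were methylated in ysE (CxF and FxC), liver had 82.8% and 85.5%, and cystic EBs had 89.8% and 87.2%, from 99568 to 177768 CpG reads per library. The means were 74.8% ± 3.89, 84.2% ± 1.93 and 88.5% ± 1.84 (SD, n = 2), and the groups did not overlap. As above, an exact test of this value cannot pass at this n. ysE was 9.37 percentage points below liver, and the same gap was 11.8 points in ERVK, 19.1 in ERVL, 18.2 in ERVL-MaLR and 16.6 in all repeats. RLTR6-int made the ERV1 values higher and the gap narrower, since the names other than it, with 64.5% of the CpG reads, had 68.9% in ysE, 80.7% in liver and 86.1% in the EBs, a gap no smaller than that of ERVK. Of the 603 ERV1 elements with at least 5 CpG reads in each library, 77.1% were lower in ysE than in liver, 87.6% higher in cystic EBs than in ysE and 73.0% higher in cystic EBs than in liver. The values cover the 16 chromosomes with calls in all 6 libraries. Chromosome 15 had calls in ysE and cystic EBs but not in liver and was left out, and chromosomes 13, 19, X and Y had at most 13 calls in any library.

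Pooled over names, the families fell into a high and a low class. In ysE, MuLV had 85.0% and 85.5%, VL30 had 85.4% and 82.2% and GLN had 81.4% and 80.6% methylated reads. MuRRS had 65.2% and 59.0%, other LTR names 63.3% and 55.0%, other rodent names 62.4% and 54.2%, and MER names 62.2% and 52.5%. No library of the first set overlapped one of the second. The 4 remaining names as a group were lower still, with 55.3% and 46.7%. In liver the 3 families of the first set had means of 86.4% to 89.7% and the 4 of the second 74.9% to 78.0%, and in cystic EBs 89.9% to 93.2% and 80.6% to 87.4%. The gap of ysE below liver was 4.41 to 5.65 points in the first set and 13.7 to 20.7 points in the second. Single names of the first set departed from its families, since ysE differed from liver by -11.0 points in MMERGLN_LTR, -12.1 in RLTR4_Mm, -12.6 in RLTR6B_Mm and -18.9 in RLTR6C_Mm, all LTRs, and RLTR6C_Mm had 65.8% in ysE. Internal parts had 81.6% and LTRs 61.6% in ysE, with 87.7% and 77.9% in liver.

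**Figure D3:**
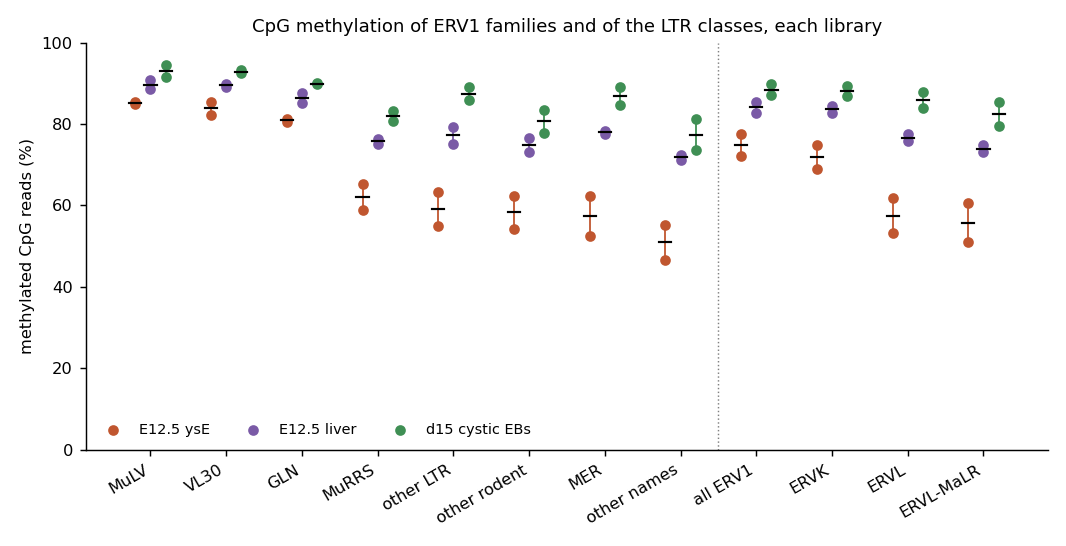
Percent of methylated CpG reads in each of the 6 WGBS libraries for 8 groups of ERV1 names and, right of the dotted line, for all ERV1 and the other LTR classes, black bars marking means of 2 libraries. MuLV, VL30 and GLN lie between 80.6% and 85.5% in ysE, and MuRRS, MER and the other names lie lower.

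By name, 70 of the 147 had at least 100 CpG reads in each library and were tested with limma on the log2 ratio of methylated to unmethylated reads. The fitted SE was the same, 0.394, for every name, that is, the spread was pooled over names that share the 6 libraries. A call therefore follows the size of the difference and does not come from the name's own replicates. Separately, 2 libraries against 2 cannot go below p = 0.333 in an exact two-sided permutation test. Between ysE and liver, 0 were higher and 55 lower in ysE, beside 0.0% and 91.0% of the 668 names of all classes. In either direction 56 had an unadjusted p under 0.05, and limma was the only tool run. Between cystic EBs and ysE, 68 were higher and 0 lower in cystic EBs, beside 97.3% and 0.0%, and between cystic EBs and liver 19 were higher and 0 lower, beside 32.0% and 0.15%. The latter were 5 of 98 names with a minimum of 20 CpG reads and 0 on the percent scale. The count of 55 was 17 without liver FxC, 22 without ysE FxC and 31 without liver CxF, and that of 19 was 2 without liver CxF, 3 without liver FxC, 4 without the CxF EBs and 30 without the FxC EBs. Of the 70 names, 67 had both ysE libraries below both liver libraries (98.5% of the names of all classes), 69 had both cystic EB libraries above both ysE libraries (99.0%) and 46 had them above both liver libraries (74.6%).

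The lowest names in ysE, among the 17 with at least 1000 CpG reads in every library, were RodERV21-int, RMER2, MERV1_I-int and RMER5. RodERV21-int had 54.9% and 43.6% in ysE, against liver with 73.0% and 75.9% and cystic EBs with 83.3% and 75.7%. Its difference of ysE from liver was -25.2 points (log2 ratio -1.59) and stayed called without any 1 library. RMER5 differed by -20.8 points (called, lost without liver FxC, log2 ratio -1.66 to -1.14), and RMER2 by -17.5 points (called, lost without liver CxF, liver FxC or ysE FxC, -1.29 to -0.82). The highest were MuLV-int with 85.4% and 89.3% in ysE, RLTR4_MM-int with 86.1% and 85.1%, RLTR6-int with 86.7% and 84.2%, and RLTR6_Mm with 85.6% and 82.6%. None of these 4 passed the test between ysE and liver, with differences of -1.5, -4.5, -4.9 and -2.9 points, and a missed threshold does not show that they were alike. Of the names that led the read comparisons, MMERGLN-int had 82.1% and 82.0% in ysE, against liver with 85.2% and 88.2% and cystic EBs with 90.5% and 91.0%. It was higher in cystic EBs than in ysE (log2 ratio 1.10). RLTR14-int had 61.6% and 51.5%, 72.1% and 73.9%, and 88.7% and 80.9%, and was also higher in cystic EBs than in ysE (log2 ratio 2.13). The WGBS libraries were of other clones, strains and, for ysE, another stage than the RNA libraries. The RLTR14-int methylation moreover came mostly from copies other than those with the RNA reads, since the 223 copies on chromosome 14 gave 17 to 122 CpG reads per library and the 1329 others 575 to 1073. The chromosome 8 copy of GLN had 86.3%, 86.2% and 92.3% in ysE, liver and cystic EBs, from 24 and 195 CpG reads, 86 and 335, and 168 and 364 in the same order.

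Names with more CpG positions tended to be more methylated. Across the 70 names, the density of called CpG positions and the methylation in ysE had a Spearman rho of 0.64 and a Pearson r of 0.68, with rho of 0.54 in liver and 0.43 in cystic EBs. This describes names that share libraries and copies and is no test. The 19 names with over 1 CpG per 100 bases had a median of 69.9% in ysE and 82.7% in liver, and the 51 others 57.3% and 75.8%. GLN, VL30 and MuLV had 1.63, 2.07 and 2.02 called positions per 100 bases, and the other groups at most 0.876. In the printed windows, for scale, the GLN copy on chromosome 8 held 5 CpG in 300 bases and that on chromosome 2 held 4 in 150. The VL30 LTR held 3 in 300. The ERV1 elements with enough reads for the expression test had 83.0%, 88.5% and 91.6% methylation in ysE, liver and cystic EBs, and those with fewer reads 60.6%, 76.9% and 83.6%. These sets were not matched for name, length or CpG density, and the part of these was not tested. The RNA and WGBS libraries also differed in strain, clone and, for ysE, stage.

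**Figure D4:**
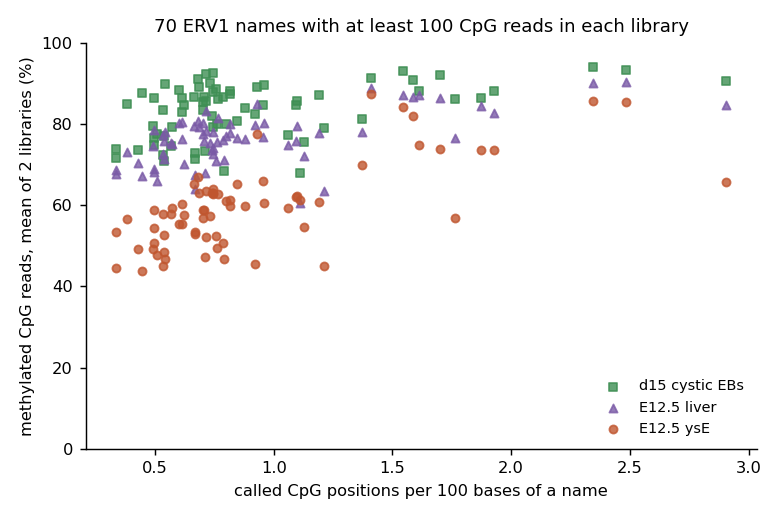
Methylated CpG reads, as the mean of 2 libraries, against the called CpG positions per 100 bases for the 70 ERV1 names with at least 100 CpG reads in each WGBS library. Names in ysE range from 43.8% to 87.4%, most lie higher in liver and cystic EBs, and the names of low density spread downward in ysE.

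H3K4me3 in the VYS marked few ERV1 elements. Of the 58298 elements, 416 (0.714%) overlapped 1 of the 22343 peaks by at least 1 base, against 0.339% in ERVK, 0.364% in ERVL, 0.159% in ERVL-MaLR and 0.508% over all repeats. The share was 2.01% in VL30, 1.46% in MuLV and 1.19% in GLN, and 3.57% of the elements tested for reads against 0.383% of those not tested. Longer elements meet a peak more readily, and these shares do not account for length. Elements with a peak numbered 56 in 3176 kb of VL30, 13 in 787 kb of MuLV and 14 in 1311 kb of GLN. MER names had 45 in 1528 kb and other LTR names 79 in 2212 kb, the most per kb of the 8 groups. The centre of a peak lay in 83 of the 416 elements, and in the others it lay outside. ERV1 elements with a peak were 76.3% methylated in ysE and those without 74.8%, and the values were 64.7% and 72.0% in ERVK, 38.6% and 57.6% in ERVL, and 38.1% and 55.8% in ERVL-MaLR. The ERV1 libraries overlapped, with 77.9% and 74.7% with a peak (2452 and 2223 CpG reads) and 77.5% and 72.0% without. The peaks were of whole VYS and the methylation of separated ysE. Elements with a peak also held more called CpG positions, in ERV1 1.79 per 100 bases against 0.951 without one, and the part of CpG density was not tested. These are values of 1 ChIP library without a test.

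Some annotated transcripts start inside an ERV1 element. Of the 32851 RefSeq start windows, 147 had their start in 139 ERV1 elements, 23.8 per 10000 elements, against 19.2 in ERVK, 15.8 in ERVL and 16.1 in ERVL-MaLR. These rates do not account for element length. The 139 ERV1 elements stood in 26.8 Mb, against 475 in 107 Mb of ERVK, 134 in 24.2 Mb of ERVL and 521 in 87.55 Mb of ERVL-MaLR. Per Mb, ERVL and ERVL-MaLR thus lay above ERV1. In windows of 300 bases around these 147 starts, both strands searched, TATAAA was found in 23.1% (13.6% of all windows), CCAAT in 55.1% (37.4%) and AGATAA in 19.7% (11.2%), and the median CG count was 4 (7 in all windows). These matches are letters and not sites. Tfpi2, Timd2 and Klhl23 had such a start and an H3K4me3 peak that overlapped the element. Each of these peaks ran beyond its element, and that at Timd2 scored 189, below the median of 863 over all peaks. Rnf180, with a start in RLTR48A, also had an overlapping peak, and only its RPKM is given below. For the 3 genes described, the element's bases in the window are printed with CpG in capitals.
Tfpi2, RMER5, chr6:3988809-3989075, minus strand: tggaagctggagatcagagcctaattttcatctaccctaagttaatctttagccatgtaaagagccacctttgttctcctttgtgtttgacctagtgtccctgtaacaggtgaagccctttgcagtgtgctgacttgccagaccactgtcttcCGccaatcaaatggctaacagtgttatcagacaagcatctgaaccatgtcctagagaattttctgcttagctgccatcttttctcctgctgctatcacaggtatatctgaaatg
Timd2, RLTR14-int, chr11:46707104-46707354, minus strand: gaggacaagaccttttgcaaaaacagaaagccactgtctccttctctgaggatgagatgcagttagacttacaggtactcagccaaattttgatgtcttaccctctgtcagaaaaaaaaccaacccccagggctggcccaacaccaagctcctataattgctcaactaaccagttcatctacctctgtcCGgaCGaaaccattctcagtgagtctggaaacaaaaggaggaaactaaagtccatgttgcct
Klhl23, MER89, chr2:69821691-69821990, plus strand: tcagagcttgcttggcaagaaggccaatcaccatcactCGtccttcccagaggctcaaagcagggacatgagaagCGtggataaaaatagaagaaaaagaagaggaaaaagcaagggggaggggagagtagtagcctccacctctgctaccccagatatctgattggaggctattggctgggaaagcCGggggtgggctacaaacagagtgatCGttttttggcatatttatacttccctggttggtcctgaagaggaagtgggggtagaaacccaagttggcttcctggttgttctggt
Tfpi2 encodes an inhibitor of serine proteases. Both ysE stages were high, with 8.49 and 6.89 RPKM at E9.25 and 16.7 in the single E12.5 library, against 1.78 and 1.91 in mesoderm and 1.54 and 1.99 in liver, while 4 cystic EB libraries of 2 clones had 0.115 to 0.637. Of its 3 annotated starts, 2 lay in the RMER5 element, whose window held 1 CpG and 1 CCAAT. Timd2 encodes a cell surface receptor that binds ferritin. It had 39.9 and 35.9 RPKM in E9.25 ysE and 63.1 at E12.5, against 2.17 and 4.46 in mesoderm, 4.04 and 5.43 in liver and, in cystic EBs, 0.220 to 1.92, and 1 of its 2 starts lay in RLTR14-int. Klhl23 ran the other way, with 0.510 and 0.441 RPKM in E9.25 ysE and 0.437 at E12.5, against 4.32 and 3.72 in mesoderm, 3.92 and 4.52 in liver and, in cystic EBs, 3.81 to 8.12. The MER89 window, where 1 of its 3 starts lay, held 1 TATAAA and 3 CCAAT. Gcnt1 was unlike these, with 10.9 and 9.57 RPKM in E9.25 ysE, 7.63 to 9.88 in mesoderm and cystic EBs, 3.24 and 4.47 in liver and 0.841 in E12.5 ysE, the lowest of the 11 libraries. For each of the other 3 genes, ysE did not overlap any other tissue. Neither did Rnf180, with 0.022 to 0.055 RPKM in ysE against 0.182 to 0.559 in the other tissues. RPKM values were available for only a small part of the 138 gene symbols with a start in an ERV1 element. The share of all genes without such overlap was not counted. Tfpi2, Timd2 and Klhl23 were chosen after their values were seen. The RPKM counts every start of a gene together, and how much of each level came from the ERV1 start was not tested. The elements themselves had few reads. The RMER5 element at Tfpi2 had 26 and 33 in ysE, 0 and 7 in mesoderm and 2 and 0 in cystic EBs. The RLTR14-int element at Timd2 had 2 and 2, 2 and 0, and 3 and 3 reads, with no excess in ysE. The MER89 element at Klhl23 had 4 and 29, 19 and 31, and 22 and 48.

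**Figure D5:**
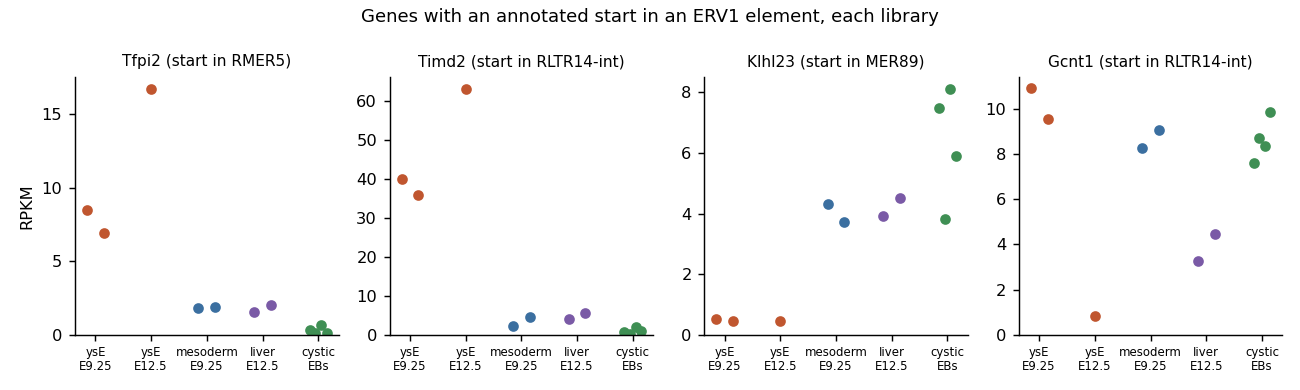
RPKM in each library for 4 genes with an annotated start in an ERV1 element, at E9.25 and E12.5 for ysE, E9.25 for mesoderm, E12.5 for liver and d10 and d15 for cystic EBs. Tfpi2 and Timd2 are high in ysE alone, Klhl23 is low in ysE alone, and Gcnt1 is between 7.63 and 10.9 in E9.25 tissues and cystic EBs.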

How the data were processed

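The authors aligned rRNA-depleted RNA-seq and WGBS reads to mm10 with GSNAP (version 2012-12-12) and deposited read counts per RepeatMasker element for 6 libraries, read counts and RPKM values per RefSeq transcript, methylation calls per CpG position from BisSNP (percent methylated with read coverage, as deposited), and MACS 1.4.2 peak coordinates with their −10 log10 p score. How reads matching several copies were counted is not given in the sources used here.

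Counts were summed by repeat name. Names and single elements of all classes were fitted with edgeR 4.0.16 (quasi-likelihood, TMM, filterByExpr, 3 groups in 1 fit) in R 4.3.3, and p-values were adjusted over all names or elements tested. CPM are repeat reads scaled to library size by TMM. Methylated reads were summed over CpG positions by name on the 16 chromosomes called in all libraries, names with at least 100 CpG reads in each library were kept, and the log2 ratio of methylated to unmethylated reads, with an offset of 1 read, was fitted with limma 3.58.1. Single elements needed at least 5 CpG reads, and peaks an overlap of 1 base. The fits were also run on simulated data. Reads were simulated with 1 common spread, taken from the fit by name and used for single elements too. That run therefore cannot speak for the element calls. The members, lists and tests were chosen with earlier results of these data known. Names described were the 12 of highest mean CPM, the 3 of largest called change without overlap in each direction of each comparison, the 4 highest and 4 lowest in ysE methylation and the 3 of largest difference from liver, and elements were the 6 of most reads and the 2 of largest called change in each direction with a mean of at least 20 reads in the higher group. Over names, the correlation of deviations from the group means was 0.07 between ysE A and mesoderm A. Between tissues of the same cross it was -0.04 to 0.04. This value does not register a shift shared by all names, so it cannot show whether the libraries pair. Alternatives were another normalization, filter, tool (DESeq2 1.42.0), coverage minimum, the replicate block and each library left out. Repeat names in the table were used as given. Printed sequences are RefSeq's on GRCm38.p6.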

Additional observations from a re-analysis of the deposited data

How the results depend on the processing

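None of the names and elements chosen by the stated rules that passed the test changed direction under the alternatives run. The splits of called elements into higher and lower did turn with the scaling, as given above. In place of the 26 names called between ysE and mesoderm, 43 were called by the DESeq2 Wald test, 16 with only the 2 groups compared, 17 with RefSeq scaling and 13 with the replicate block, and 2 to 19 with 1 library left out. The same counts were 21 by DESeq2 and 4 to 10 with 1 library left out for the 10 names of cystic EBs against mesoderm, and 12 to 34 for the 39 of cystic EBs against ysE. The 106 elements called between ysE and mesoderm fell to 0 with the replicate block, and with any 1 library left out both these and the 722 of cystic EBs against ysE fell to 0. Whether the letters A and B mark shared litters is not given in the sources used here. With this block, 11 of the 17 described names called between ysE and mesoderm kept their call, and MMVL30-int, RLTR6-int, RLTR6_Mm, MLTR14, MER57-int and MER92A did not (adjusted p of at most 0.127 by edgeR), nor did the 5 described elements (0.241), while RLTR4_MM-int was called (0.046). The block by cross lost no described methylation call and added MURVY-int between ysE and liver. The methylation of MURVY-int came only from copies off the Y chromosome, where 397 of its copies lie. No paired analysis was possible because the repeat table holds cystic EB libraries of 1 clone only, for the read comparisons with cystic EBs. Leaving out the element with most reads of each name, an alternative chosen after seeing the data, gave 26, 9 and 40 called names.

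For methylation, the 55 names called between ysE and liver were 20 of the 26 names tested with at least 500 CpG reads, and 17 to 59 with 1 library left out. The 19 of cystic EBs against liver were 5 of 98 tested with at least 20 reads, 5 of 26 with at least 500 and 0 on the percent scale, and 2 to 30 with 1 library left out, and the 68 of cystic EBs against ysE were 25 of 26 with at least 500 reads and 92 of 98 with at least 20, so nearly every name tested was called at each minimum. Methylation in ysE, liver and cystic EBs was 63.9%, 78.1% and 84.1% as the mean of elements and 84.5%, 89.5% and 92.6% over elements covered in all libraries. The median element (70.8%, 84.5% and 91.0% at 5 reads) was 58.3%, 90.8% and 100% at 1 read, 77.8% in ysE at 10 reads, and 82.2% in ysE and 88.0% in liver at 20 reads. The share of reads was 0.390%, 0.475% and 0.743% of all repeat reads in ysE, mesoderm and cystic EBs, and 1.66%, 1.86% and 2.23% without the 10 elements of most reads. The 416 elements with an H3K4me3 peak were 83 by peak centre and 210 with the upper 50% of peaks. Settings other than a library left out kept 630 of the named read results on their side of the threshold, with 33 lost and 19 gained. They kept 285 methylation results, with 14 lost and 7 gained. Leaving out 1 library lost more of both kinds. Depth limits what can be said of single copies, and 17.9% of the elements had no read.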
